A study of Mus musculus with 4 samples.

Results

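The transcripts of 10 intermediate filament genes were examined in C22 cells, an immortalized mouse line derived from lung Club cells, which line the small airways and secrete protective proteins. The genes were taken by symbol from the deposited count table of 22063 gene identifiers, and each of the 10 symbols stood beside 1 identifier. They were the keratin genes Krt5, Krt7, Krt8, Krt14, Krt18 and Krt19, the vimentin gene Vim, the nestin gene Nes and the lamin genes Lmna and Lmnb1. Wild type cells were given norepinephrine (NE), which sympathetic nerve endings release, at 10 µM for 3 h (2 libraries), or vehicle for the same time (2 libraries). All 4 libraries come from this single cell line. The labels do not call the replicates separate cultures, and the spread that the p-values measure may therefore be technical.

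Intermediate filaments are the rope-like fibres that give a cell its mechanical strength. Keratins assemble only as pairs of a type I and a type II chain, and the pair that a cell makes marks its kind of epithelium: Krt8 with Krt18 or Krt19 in simple epithelia, and Krt5 with Krt14 in basal cells. Vimentin forms homopolymers in mesenchymal cells and in many cultured cells, nestin joins vimentin-type filaments in progenitor cells, and lamins form the meshwork beneath the nuclear membrane. In the airway, Club cells can give rise to other epithelial cells, and basal cells carry the Krt5 and Krt14 pair.

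The genes Krt5, Krt7, Krt8 and Krt18 lie on chromosome 15, where Krt8 and Krt18 are near each other, and Vim lies on chromosome 2. RefSeq start regions (GRCm38.p6, 250 bases before to 50 bases from the start) were found for 8 of the 10 genes. Those of the expressed pair Krt8 and Krt18, of Krt5, which had 1 count in all, and of the most abundant gene Vim are shown. The letters TATAAA of the TATA box motif are in capitals at any position. The regions run from 120 bases before the start through the first 30 bases of the transcript. They are Krt8 at chr15:102004313-102004462 (minus strand), Krt18 at chr15:102028096-102028245 (plus strand), Krt5 at chr15:101712876-101713025 (minus strand) and Vim at chr2:13574191-13574340 (plus strand).
Krt8: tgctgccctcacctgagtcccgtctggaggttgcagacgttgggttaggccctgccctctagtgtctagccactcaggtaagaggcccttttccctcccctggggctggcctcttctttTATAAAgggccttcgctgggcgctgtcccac
Krt18: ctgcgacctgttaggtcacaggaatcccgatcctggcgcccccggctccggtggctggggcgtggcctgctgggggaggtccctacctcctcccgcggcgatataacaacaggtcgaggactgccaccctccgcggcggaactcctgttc
Krt5: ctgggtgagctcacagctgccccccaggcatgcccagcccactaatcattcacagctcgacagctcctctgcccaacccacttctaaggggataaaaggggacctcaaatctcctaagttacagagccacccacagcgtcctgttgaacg
Vim: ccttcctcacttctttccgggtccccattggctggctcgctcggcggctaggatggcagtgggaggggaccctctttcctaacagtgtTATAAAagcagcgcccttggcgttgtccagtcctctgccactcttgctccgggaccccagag
On the sense strand TATAAA was found in Vim from base -32 and in Krt8 from base -1, counted from the annotated start, and 8.32% of all 32851 such regions held it. The GC box letters GGGCGG, on either strand, were found in the regions of Krt7, Nes and Lmna and in 35.7% of all regions. The cAMP response element letters TGACGTCA were found in none of the searched regions of the filament genes and in 1.79% of all regions. The AP-1 letters TGANTCA were found in that of Lmna and in 7.81% of all. Lmnb1 was left out of the searches of the filament genes, so nothing is said of its letters. These searches describe letters and do not bear on whether a factor binds.

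Among the genes examined, the abundant transcripts were those of vimentin, the simple epithelial keratins Krt8, Krt18 and Krt19, and the lamin genes Lmna and Lmnb1. The basal keratin Krt5, the keratin Krt7 and nestin were at or near 0. Levels between genes were compared as CPM (counts set to the same scaled total in each library) per kb of transcript. Vim was the most abundant, at 1225 to 1433 CPM per kb over the 4 libraries. Krt8 followed at 435.8 to 485.5 CPM per kb and Krt18 at 381 to 442 CPM per kb, ranges that overlap. Lmna stood at 230.3 to 249.0 CPM per kb, Krt19 at 81.8 to 128 CPM per kb and Lmnb1 at 63.8 to 70.4 CPM per kb. Of these 6 genes, only the neighbours Krt8 and Krt18 had overlapping ranges. All 6 stood above at least 90.6% of the 11399 tested genes with a known transcript length, and Vim above 99.8%.

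The other members were at lower levels. Krt14, the type I keratin of basal cells, stood at 4.43 to 7.72 CPM per kb, above 31.3% of the tested genes. Krt7, a type II keratin of ducts and other simple epithelia, had 12 and 7 counts in the vehicle libraries and 18 and 12 counts in the NE libraries, or 0.115 to 0.282 CPM per kb. Krt5, the partner of Krt14, had 0 counts in 3 libraries and 1 count in the first NE library. Nes had 0 counts in every library, which allows up to 0.0471 CPM over the 4 libraries together. Krt14 was thus found without its usual type II partner, while the type II keratin Krt8 was abundant.

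**Figure D1:**
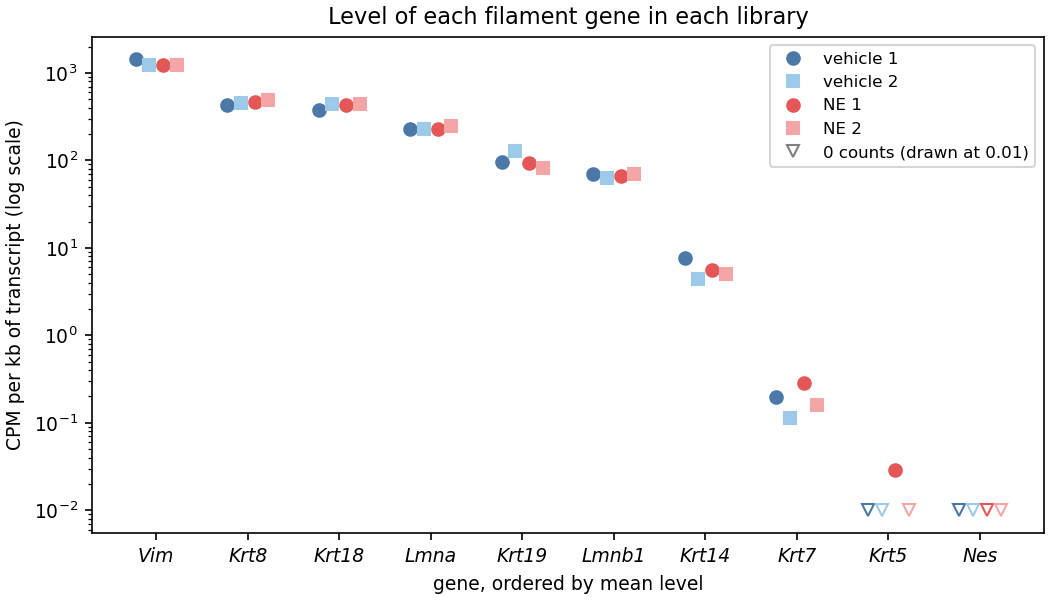
Level of each of the 10 genes in each library as CPM per kb of transcript on a log axis, with open triangles at 0.01 for a library with 0 counts. Vim stands highest at 1225 to 1433, Krt8 and Krt18 overlap, and Krt5 and Nes have 0 counts in 3 and in all 4 libraries.

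Vim had the largest share of the summed counts per kb of the 10 genes in each library. It took 54.0% in the first vehicle library and 48.0% in the second, and 48.9% and 48.4% in the NE libraries. Krt8 made up 16.4% and 17.9% of the sum in vehicle and 18.3% and 18.8% in NE. Krt18 made up 14.4% and 17.3% in vehicle and 17.0% and 17.1% in NE. The first vehicle library thus held the highest share of Vim and the lowest shares of Krt8 and Krt18. The 10 genes took between 0.527% and 0.566% of all counts in a library.

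**Figure D2:**
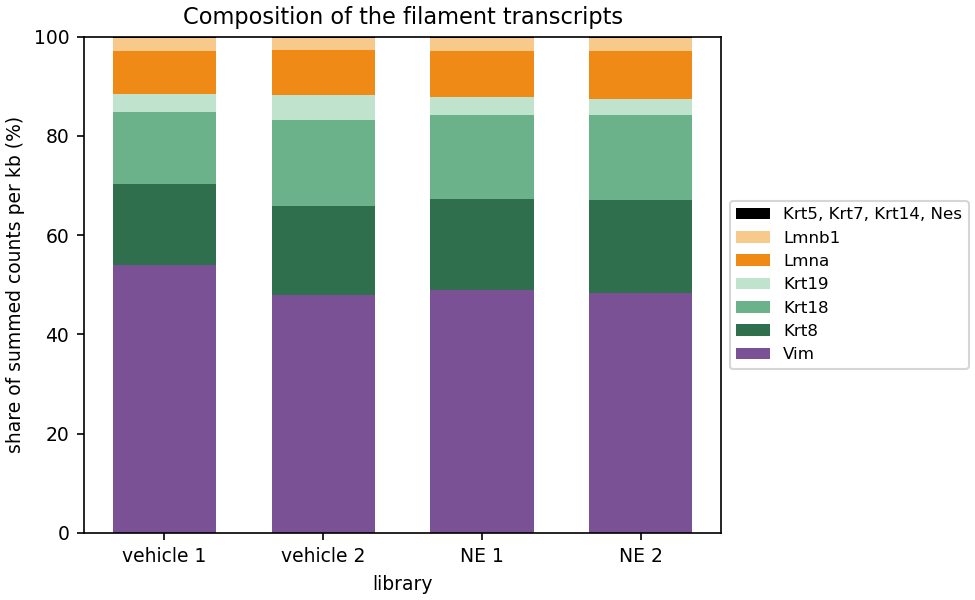
Share of each gene in the summed counts per kb of the 10 genes, 1 bar per library. Vim makes up 54.0% of the bar of the first vehicle library and 48.0% to 48.9% of the other bars, while Krt5, Krt7, Krt14 and Nes together are barely visible.

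None of the 10 genes was called between NE and vehicle. Of the 8 genes with enough counts to be tested, edgeR's quasi-likelihood test called 0 at an adjusted p under 0.05, against 1.57% of the 11419 genes tested. Over all genes 39 (0.342%) were higher and 140 (1.23%) lower. DESeq2 and limma voom also called 0 of the 8. DESeq2 gave no adjusted p to some genes with lower counts, among them Krt7 and Krt14, and so could not call those. Before adjustment 1 of the 8, Krt19, had an edgeR p under 0.05, against 17.3% of all tested genes. Log2 fold changes were above 0 for 5 and below 0 for 3, with a median of 0.05, and the median of all tested genes was -0.0001. The groups did not overlap for 3 of the 8, Krt8, Krt19 and Lmna, against 49.2% of all tested genes. In these bulk libraries fewer cells of a type and less RNA per cell cannot be told apart.

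The type II keratin Krt8 (ENSMUSG00000049382) had 853 and 895 CPM in the vehicle libraries and 901 and 951 CPM in the NE libraries. Both NE libraries stood above both vehicle libraries, by a small margin. Its log2 fold change was 0.08 ± 0.07 (SE; 95% interval -0.06 to 0.23, edgeR adjusted p = 0.562). Its type I partner Krt18 (ENSMUSG00000023043) had 548 and 633 CPM in vehicle and 612 and 635 CPM in NE. The groups overlapped, with the first vehicle library lowest. The log2 fold change was 0.08 ± 0.07 (95% interval -0.08 to 0.24, edgeR adjusted p = 0.632). For both genes the interval reaches no further than 0.24 from 0 on the log2 scale.

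The mean ratio of the pair was nearly the same in both groups, although the vehicle libraries differed from each other. Per kb, Krt8 had 1.14 and 1.04 times the counts of Krt18 in vehicle and 1.08 and 1.10 times in NE. The log2 ratio differed between the groups by 0.001 (exact two-sided permutation p = 1; with 2 libraries against 2 the smallest possible p is 0.333, so no ratio here can pass a threshold of 0.05). The spread of this log2 ratio was 0.10 (SD, n = 2) in vehicle and 0.02 in NE. Over all 6 keratins, type II chains stood at 0.898 and 0.798 times the type I chains per kb in vehicle and at 0.876 and 0.919 times in NE (log2 difference 0.08, exact permutation p = 0.667). Per kb, type I transcripts thus exceeded type II transcripts in every library, with Krt18 and Krt19 together set against Krt8. Without the division by length the order was the reverse in every library. Type II chains then had 854 to 951 CPM and type I chains 713 to 842 CPM.

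Krt19 (ENSMUSG00000020911), the shortest keratin, which lacks the tail domain of other type I chains, was the member with the smallest p. It had 152 and 201 CPM in the vehicle libraries and 148 and 129 CPM in the NE libraries. Both NE libraries stood below both vehicle libraries, but the first vehicle library was close to the first NE library. The mean was 177 ± 34.9 CPM (SD, n = 2) in vehicle and 139 ± 13.7 CPM in NE, with a log2 fold change of -0.35 ± 0.10 (SE; 95% interval -0.57 to -0.13, edgeR adjusted p = 0.0929), so Krt19 did not pass. The value rested on the vehicle libraries. Without the first vehicle library the log2 fold change was -0.54, without the second it was -0.13, and without the second NE library it was -0.25. Such a fit takes its spread from the other group alone, so only the log2 fold change is given here. With no low-count filter Krt19 passed narrowly (edgeR adjusted p = 0.0488), but with a robust fit it did not (adjusted p = 0.403). Over the 13 alternatives the log2 fold change ran from -0.54 to -0.13. Relative to Krt18, with which it shares the partner Krt8, Krt19 stood at 0.253 and 0.290 times per kb in vehicle and at 0.221 and 0.185 times in NE. The groups did not overlap in this ratio (log2 difference -0.42, exact permutation p = 0.333, the smallest possible). The ratio was chosen after seeing the data, so it is no separate support for a fall of Krt19. Over all tested genes, 49.2% had groups that did not overlap.

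Krt14 (ENSMUSG00000045545) had 13.1 and 7.52 CPM in the vehicle libraries and 9.48 and 8.63 CPM in the NE libraries. Both NE libraries lay between the vehicle libraries. The log2 fold change was -0.19 ± 0.22 (SE; 95% interval -0.65 to 0.27, edgeR adjusted p = 0.707), and it turned to 0.27 without the first vehicle library. For Krt7 (ENSMUSG00000023039) the log2 fold change was 0.48 ± 0.57 (95% interval -0.74 to 1.69, edgeR adjusted p = 0.721), an interval too wide, at 49 counts in all, to give a direction. Exons of Krt5, Krt7 and Krt8 overlap those of a non-coding RNA on the opposite strand, and the strand setting of the counting is not given in the sources used here. The annotation also lists a processed copy of Krt8, named Krt8-ps, which is not a row of the table.

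Vim (ENSMUSG00000026728) had 3142 and 2686 CPM in the vehicle libraries and 2691 and 2737 CPM in the NE libraries. The first vehicle library stood above the other 3, which lay close to each other. The log2 fold change was -0.10 ± 0.08 (SE; 95% interval -0.27 to 0.06, edgeR adjusted p = 0.534). Without the first vehicle library it was 0.02. The summed keratins were 0.643 and 0.841 times Vim per kb in vehicle and 0.804 and 0.812 times in NE, so that the first vehicle library was again the one apart. The log2 difference between the groups was 0.14, against an SD of 0.27 in vehicle and 0.01 in NE (exact permutation p = 1), and it was -0.06 without the first vehicle library.

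The lamin genes differed little between libraries. Lmna (ENSMUSG00000028063), whose splicing gives lamins A and C, which these counts do not separate, had 727 and 728 CPM in vehicle and 729 and 786 CPM in NE. The second NE library was the highest and the other 3 were nearly equal. The log2 fold change was 0.06 ± 0.07 (SE; 95% interval -0.08 to 0.20, edgeR adjusted p = 0.710). Lmnb1 (ENSMUSG00000024590), the B-type lamin that stays bound to the membrane by its lipid anchor, had 199 and 181 CPM in vehicle and 189.6 and 200.2 CPM in NE, and the groups overlapped. Its log2 fold change was 0.04 ± 0.07 (95% interval -0.11 to 0.19, edgeR adjusted p = 0.839). Lmna counts per kb were 3.29 and 3.62 times those of Lmnb1 in vehicle and 3.46 and 3.54 times in NE (log2 difference 0.02, exact permutation p = 1).

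Differences between the vehicle libraries were larger than those between the groups for most tested members. The vehicle libraries differed by more than the group means for 6 of the 8 tested genes, against 49.6% of all tested genes. The widest gaps among the abundant genes were those of Krt19 (log2 -0.40, first minus second vehicle library; 95% counting interval -0.48 to -0.33), Vim (0.23, 0.21 to 0.25) and Krt18 (-0.21, -0.25 to -0.17). Krt14 differed by 0.80 (0.46 to 1.15). Between the NE libraries, the difference was larger than that of the group means only for Krt7, Lmna and Lmnb1. The exact counting interval left out 0 for 6 of 8 genes within vehicle and for 6 of 8 within NE. These gaps were thus wider than counting error, and the intervals cover counting error only.

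**Figure D3:**
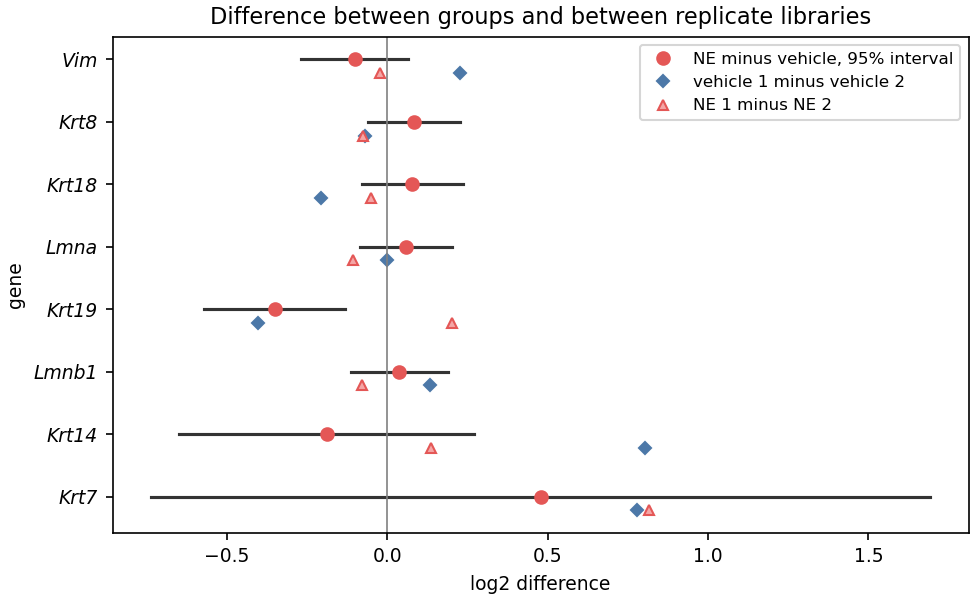
Log2 difference between NE and vehicle (circles) with its 95% interval (lines) for the 8 tested genes, with the difference between the vehicle libraries (diamonds) and between the NE libraries (triangles) below each. The interval of Krt19 alone leaves out 0, and its diamond at -0.40 lies farther from 0 than its circle at -0.35.

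Among the 47 other keratin genes listed, 4 could be tested and 26 had 0 counts. Of these 4 genes edgeR called 0, as did DESeq2 and limma voom, against 1.57% of all genes by edgeR, while 2 reached an edgeR p under 0.05 before adjustment, against 17.3%. Krt13, a type I keratin of internal stratified epithelia, had 10.6 and 42.6 CPM in the vehicle libraries and 45.0 and 47.1 CPM in the NE libraries. Here 1 library, the first vehicle library, stood far below the other 3. The log2 fold change was 0.79 ± 0.32 (SE, edgeR adjusted p = 0.218). It was 0.11 without the first vehicle library and 2.12 without the second, fits in which vehicle has no spread of its own. The type II keratin Krt80 had 25.7 and 19.6 CPM in vehicle and 16.1 and 17.3 CPM in NE (-0.44 ± 0.14, edgeR adjusted p = 0.108), and it was -0.23 without the first vehicle library (adjusted p = 0.512) and -0.62 without the second (adjusted p = 8.84e-04). Krt36 stood at 0.50 ± 0.39 (adjusted p = 0.545) and Krt10 at -0.32 ± 0.50 (adjusted p = 0.792). Of 12 other intermediate filament genes 2 could be tested, edgeR, DESeq2 and limma voom called 0, and 0 had an unadjusted p under 0.05. They were the other B-type lamin gene Lmnb2 (-0.08 ± 0.10 SE on the log2 scale, edgeR adjusted p = 0.713) and the synemin gene Synm (-0.82 ± 0.39, adjusted p = 0.295). Exons of Synm overlap those of Ttc23 on the opposite strand.

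Among genes that anchor filaments, Plec and Perp fell. Of 20 plakin and desmosome linker genes 11 could be tested and 7 had 0 counts. Among those with 0 counts were the desmosomal cadherin genes Dsg1a, Dsg2, Dsg3, Dsc1, Dsc2 and Dsc3. Of the 11 genes 2 fell, against 1.23% of all tested genes, while 0 rose, against 0.342%. An edgeR p under 0.05 before adjustment was found for 4 of the 11, against 17.3% of all tested genes. All 11 log2 fold changes were below 0 (median -0.22), whereas 5704 of the 11419 tested genes were above 0. Plec, which encodes plectin, the large linker of keratin, vimentin and lamin-bound structures, had 907 and 853 CPM in the vehicle libraries and 736 and 599.8 CPM in the NE libraries. Both NE libraries stood below both vehicle libraries. The log2 fold change was -0.40 ± 0.08 (SE; 95% interval -0.58 to -0.22, edgeR adjusted p = 0.0328). Perp, a desmosome-linked target of p53, had 30.3 and 28.2 CPM in vehicle and 21.5 and 20.6 CPM in NE (-0.48 ± 0.11, edgeR adjusted p = 0.0408).

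Among the others of this list, Dsp (chosen after its values were seen), the desmoplakin gene that ties keratin filaments to desmosomes, stood at -0.68 ± 0.18 without passing (edgeR adjusted p = 0.0660). It passed with no low-count filter (edgeR adjusted p = 0.0383) and with a robust fit (0.0494). Dsp had 11.4 and 11.2 CPM in vehicle and 7.82 and 6.39 CPM in NE. The spectraplakin genes Macf1 (-0.11 ± 0.08, adjusted p = 0.478) and Dst (-0.17 ± 0.08, adjusted p = 0.265) were not called in edgeR. Fold changes also moved with transcript length over all genes, from a median log2 value of 0.11 in the tenth with the shortest transcripts to -0.09 in the longest, and the Plec transcript is 15455 nt long. With each library's length trend removed, Plec stood at -0.23 ± 0.08 (edgeR adjusted p = 0.175), Perp at -0.49 ± 0.10 (adjusted p = 0.0669), and 7 of the 10 genes of the list with a known length were below 0 (median -0.13, against 0.03 for all genes). Without the second NE library neither was called, with Plec at -0.26 (adjusted p = 0.603) and Perp at -0.45 (adjusted p = 0.534). Perp was also not called without the first NE library (adjusted p = 0.143) or by DESeq2 (adjusted p = 0.112). Exons of Plec overlap those of Parp10, so part of its value is uncertain.

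**Figure D4:**
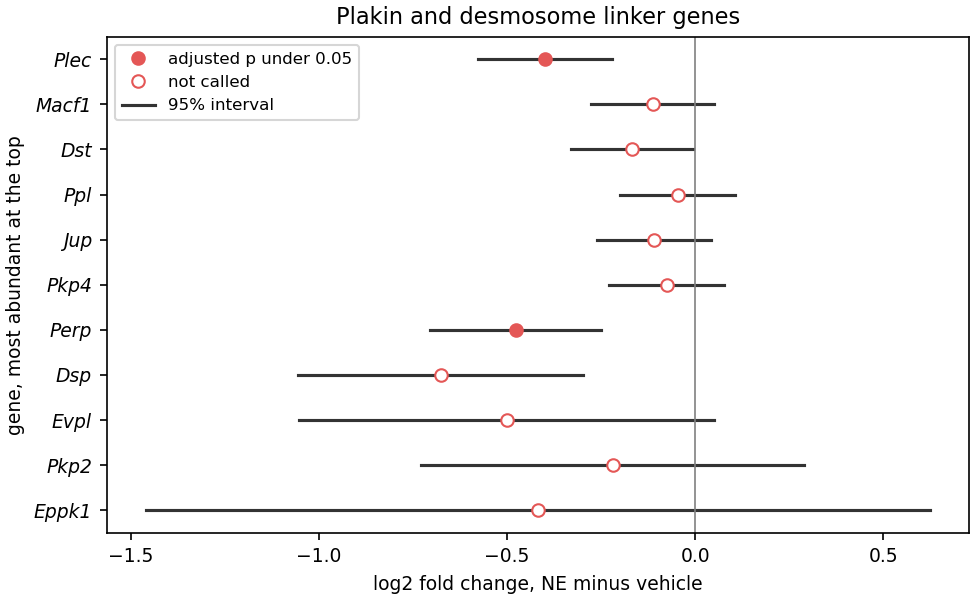
Log2 fold change between NE and vehicle with its 95% interval for the 11 tested plakin and desmosome linker genes, ordered by abundance, with filled circles for the called genes. All 11 circles lie below 0, and those of Plec (-0.40) and Perp (-0.48) are filled.

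At the nuclear envelope no partner of the lamins was called. Of 20 lamina partner genes 18 were tested, edgeR, DESeq2 and limma voom called 0, 1 had an unadjusted edgeR p under 0.05, and 9 were above and 9 below 0 (median 0.002). The 4 with the most CPM, not corrected for length, were Tmpo, which encodes the LAP2 proteins (0.06 ± 0.07 SE, edgeR adjusted p = 0.698), the nuclear basket gene Tpr (0.01 ± 0.07, adjusted p = 0.970), Tor1aip2 (0.05 ± 0.07, adjusted p = 0.750) and the nucleoporin gene Nup153 (0.02 ± 0.07, adjusted p = 0.926). Of 5 genes for the farnesylation, cleavage and methylation of prelamin A and B-type lamins, edgeR, DESeq2 and limma voom called 0 and 1 had an unadjusted p under 0.05 (median -0.08). The prelamin protease gene Zmpste24 stood at -0.08 ± 0.07 (edgeR adjusted p = 0.586) and the methyltransferase gene Icmt at -0.18 ± 0.08 (adjusted p = 0.252). The farnesyltransferase gene Fnta stood at 0.08 ± 0.08 (adjusted p = 0.670), and the protease gene Rce1 at -0.14 ± 0.12 (adjusted p = 0.596).

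The filament pattern was set beside markers of cell identity, since the line is labelled as Club cells. The defining secretory products and enzyme of Club cells were absent or nearly so: Scgb1a1 had 2 counts in all, while Scgb3a2 and Cyp2f2 had 0. Other genes of the list were abundant, with the aldehyde dehydrogenase gene Aldh1a1 at 863 ± 135 CPM (SD, n = 2) in vehicle and 780.3 ± 11.7 CPM in NE and the epoxide hydrolase gene Ephx1 at 150.3 ± 7.83 and 135 ± 3.78 CPM. Of 12 Club cell markers 4 were tested and 7 had 0 counts, and their summed level was 915 to 1117 CPM in vehicle and 913.5 to 924 CPM in NE. Of 12 epithelial markers 1 was tested and 5 had 0 counts, among them Epcam, while Cdh1 had 18 counts. Their sum was 12.7 to 13.0 CPM in vehicle and 10.9 to 11.3 CPM in NE. Of 9 basal markers 3 were tested and 1 had 0 counts, with 19 counts of Trp63 and sums of 91.4 to 117 CPM in vehicle and 94.1 to 96.3 CPM in NE. Most of the basal sum came from 1 gene, Pdpn, at 88.5 CPM in vehicle and 84.8 CPM in NE on average. Of 18 mesenchymal markers 16 were tested and 2 had 0 counts, with sums of 6179 to 6604 CPM in vehicle and 5696 to 6010 CPM in NE. Among the tested mesenchymal markers 6 log2 fold changes were above 0 and 10 below (median -0.09). The collagen gene Col1a1 was at 1276 ± 127 CPM (SD, n = 2) in vehicle and 1125 ± 3.93 CPM in NE.

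No marker of these 4 lists was called between the groups by edgeR, DESeq2 or limma voom, and 1 Club cell, 0 epithelial, 1 basal and 5 mesenchymal markers, of 4, 1, 3 and 16 tested, had an edgeR p under 0.05 before adjustment, against 17.3% of all tested genes. The first vehicle library, which was highest in Vim, was also highest in the summed markers of all 4 lists. In the epithelial list the margin over the second vehicle library was small (13.0 against 12.7 CPM). Single genes did not all follow the sums. Esrp2, the only tested epithelial marker, had 11.4 and 11.9 CPM in the first and second vehicle libraries. Fn1, the mesenchymal marker with the most CPM, had 1959 and 2247 CPM there, whereas Col1a1 had 1365 and 1186 CPM. Aldh1a1 gave most of the Club cell sum, at 958 and 767 CPM. The part of these markers in the Vim and keratin values was not tested.

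Among 8990 genes averaging 10 CPM or more, the profiles nearest to the abundant members over the 4 libraries were sought by the Euclidean distance between centred log2 CPM values. For Vim these were Map3k4 (0.0148), Igfbp7 (0.0170) and Ehd2 (0.0205), for Krt8 Pnrc2 (0.0044), BC005537 (0.00738) and Acsl5 (0.00892), and for Lmna Eef1g (0.0030), Prep (0.00527) and Capns1 (0.00542). Within a distance of 0.1 there were 313 genes for Vim, 1443 for Krt8 and 1523 for Lmna, so these nearest genes are a small pick from many alike, over 4 libraries only.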

How the data were processed

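RNA was sequenced from 4 libraries of C22 cells, 2 per group, matched to the table's columns by the library descriptions. The deposited table holds raw counts of reads for each gene, per the file headers. The genome build is GRCm39, per the submitters' processing notes. Aligner, counter, annotation release and strandedness: not given in the sources used here. Total counts ran from 14783176 to 18491334, so 3 counts, the limit that a count of 0 allows, are 0.162 to 0.203 CPM in a library. Intervals and limits cover counting error only. The chi-square per degree of freedom between libraries was 4.64 to 13.9, so no pair agreed within sampling noise.

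Counts were tested with edgeR 4.0.16 (R 4.3.3) (quasi-likelihood test, group alone in the model), with TMM scaling and filterByExpr (minimum count 10, minimum total 15). Benjamini-Hochberg adjustment ran over all 11419 tested genes, and calls were made at an adjusted p under 0.05. Each SE was derived from the log2 fold change and its F statistic. CPM use TMM-scaled totals. Ratios within a library were compared by exact permutation. Transcript length is the longest basic coding transcript of GENCODE M21 (GRCm38), matched by gene ID for 21973 identifiers. No symbol stood beside 30 identifiers (0.000742% of the counts).

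Alternatives were DESeq2 size factors, total counts, 2 other filters, DESeq2 1.42.0, limma voom (limma 3.58.1), a robust fit, the replicate number as a block, removal of the length trend, and each library left out, where the lone library of a group is assumed to vary like the other group. The code was checked on simulated counts. Named beyond the 10 genes were called genes of the 9 companion lists, then their most abundant up to 4, and fixed identity markers; some of these are not described. The genes and lists were chosen with earlier results of these data known, and no list was tested as a set.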

Additional observations from a re-analysis of the deposited data

How the results depend on the processing

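Over all genes, the 39 higher and 140 lower calls became 12 higher with total counts as scaling, 84 and 225 with no low-count filter, 24 and 51 with DESeq2, 71 higher with a robust fit, and 4 and 14 with the length trend removed. Leaving out 1 library gave 2 to 312 higher and 2 to 428 lower calls. The number of filament genes called was 0 in every setting but no filter and the first vehicle library left out, with 1 each, Krt19 both times (range 0 to 1 with a library left out). The companion lists, with 2 calls, had 1 with DESeq2, 0 with the length trend removed and 0 to 14 with a library left out.

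Same-numbered libraries did not deviate together (correlation -0.03 over 9851 genes). The labels do not say whether they share a culture or batch, and this correlation cannot decide it. With the replicate number as a block 84 genes were higher and 236 lower, and Krt13 was called (log2 fold change 0.97, edgeR adjusted p = 0.0259), but 0 filament genes were. The group differences in the ratios are the same under this pairing by arithmetic, so this does not check them.

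Log2 fold changes with a library left out ran from -0.53 to 0.27 for Krt14, from -0.022 to 0.19 for Krt18, from -0.21 to 0.015 for Vim and from -0.027 to 0.10 for Lmnb1. Directions turned without the first vehicle library for the first 3 genes, and for Lmnb1 when the second vehicle library (-0.027) or the second NE library (-0.003) was left out. Krt7, Krt8, Krt19 and Lmna kept their direction in the 12 or 13 alternatives run for each. Differences between the groups (NE minus vehicle) in the log2 ratios were also taken with a library left out. For Krt8 to Krt18 the difference ran from -0.07 to 0.07, and for Lmna to Lmnb1 from -0.05 to 0.09. It ran from -0.06 to 0.33 for keratins to Vim and from -0.0005 to 0.17 for type II to type I keratins. For Krt19 to Krt18 it ran from -0.55 to -0.29. The last 2 ratios were chosen after seeing the data. Depth limits Krt5, Krt7 and Nes, which had 1, 49 and 0 counts in all.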
